A study of Homo sapiens with 12 samples.

Results

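The genes described here are 5 metallothioneins (MT1E, MT1F, MT1M, MT1X and MT2A), the zinc-sensing transcription factor MTF1, the zinc exporter SLC30A1 and the zinc importer SLC39A10. They were taken from the count table by gene symbol and are 8 of its 63677 genes. They were chosen by their measured expression differences among the same 12 samples, so the values given below for them are a description and carry no test. All 8 passed the filter on low counts (10 or more in 3 or more samples), MT1M through untreated and GO–Rg3-treated cells alone.

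The study measured mRNA of Huh7 cells, a human hepatocellular carcinoma line, to ask how loading graphene oxide (GO) nanosheets with the ginsenoside Rg3 alters the cell response to GO and what doxorubicin (DOX), an anthracycline that damages DNA, adds to it. There were 4 groups of 3 samples: cells in medium only (untreated), and cells exposed for 6 h to GO (400 µg/mL), to GO–Rg3 (400 µg/mL) and to GO–Rg3–DOX (100 µg/mL). All were the same cell line, the labels name no genetic modification, and cells given free DOX were not analysed here. No source says whether the 3 samples of a group were separate cultures, so p-values measure only the spread between these samples.

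Metallothioneins are small, cysteine-rich proteins that bind zinc, copper and cadmium, and the liver is a main site of their synthesis. Free zinc in the cell activates MTF-1, which binds metal response elements in the promoters of metallothionein genes and of SLC30A1. SLC30A1 (ZnT1) carries zinc out across the plasma membrane, SLC39A10 (ZIP10) brings it in, and SLC39A10 is known to be repressed by MTF-1 when zinc is high.

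Library totals ranged from 27802871 to 38877420 counts. The 9 hepatocyte-lineage markers examined, albumin among them, were each above 1 CPM in every group, whereas none of the 4 immune and 3 endothelial markers reached 1 CPM. The summed level of the hepatocyte markers was 22701 to 23112 CPM in untreated cells, 13971 to 16072 CPM under GO, 17251 to 20100 CPM under GO–Rg3 and 29130 to 34501 CPM under GO–Rg3–DOX. The markers did not move alike. AFP, the highest of them, had means of 12287 CPM in untreated cells, 5836 CPM under GO and 14300 CPM under GO–Rg3–DOX. HNF4A went the other way, at 363, 563 and 180 CPM. Under GO the means of SERPINA1 and APOA1 were also higher and those of the remaining markers lower. Of the 4 fibroblast markers, 2 exceeded 1 CPM, and their summed level was 3.65 to 5.46 CPM in 3 groups and 10.4 to 14.0 CPM after GO–Rg3–DOX. Mitochondrially encoded genes held 5.81% ± 0.489 (SD, n = 3) of the counts in untreated cells and 7.24% ± 0.301 after GO–Rg3. Their share was 17.0% ± 6.28 after GO and 15.4% ± 3.52 after GO–Rg3–DOX, with 24.1% in GO replicate 1. The mitochondrial share and the marker sums differed between groups. The mean share was highest after GO, followed by GO–Rg3–DOX, GO–Rg3 and untreated cells. Below, the means of SLC39A10 had this order and those of each metallothionein its reverse, while SLC30A1 and MTF1 had neither. The marker sums had another order, highest after GO–Rg3–DOX and lowest under GO. The part of the mitochondrial share and the marker sums in the gene levels was not tested. The differences under GO are given below with and without GO replicate 1. In RNA from whole cultures, fewer cells expressing a gene and less RNA per cell cannot be told apart.

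The 5 metallothionein genes lie together on chromosome 16, within 75.6 kb between 56642496 and 56718108 (GRCh37, forward strand). From the start of the cluster the order is MT2A (56642496 to 56643409), MT1E (56659387 to 56661024), MT1M (56666571 to 56667893), MT1F (56691643 to 56694610) and MT1X (56716382 to 56718108). Their canonical transcripts are short, 398 to 746 nt against a median of 2792 nt over the genes tested. MT1 genes are near-identical copies of each other, and how the authors' counting treated reads that map to several of them is not given in the sources used here, so the split of reads among them is uncertain. SLC30A1 lies on chromosome 1 (211744910 to 211752503, reverse strand), MTF1 on chromosome 1 (38275246 to 38325264, reverse strand) and SLC39A10 on chromosome 2 (196440701 to 196602426, forward strand). MT1X overlaps 1 further annotated gene, on its own strand, and MTF1 and SLC39A10 each overlap 2 further annotated genes.

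The promoters are shown because the metal response element is the letter pattern through which MTF-1 is known to act on these genes. RefSeq windows of GRCh38.p14, from 250 bases before to 50 bases after the transcription start, were held for 5 of the 8 genes (MT2A, MT1X, MTF1, SLC30A1 and SLC39A10, the last with 2 windows). MT1E, MT1F and MT1M had no entry. The element's core was searched as TGCACNC and TGCGCNC and, for the opposite strand, as GNGTGCA and GNGCGCA, with overlapping matches counted separately. The 250 bases before the start of MT2A (chr16:56642246-56642495 in GRCh37, forward strand), MT1X (chr16:56716132-56716381, forward strand) and SLC30A1 (chr1:211752504-211752753, reverse strand) were found once each in GRCh37 and read as follows, 5′ to 3′, with the cores in capitals.
MT2A: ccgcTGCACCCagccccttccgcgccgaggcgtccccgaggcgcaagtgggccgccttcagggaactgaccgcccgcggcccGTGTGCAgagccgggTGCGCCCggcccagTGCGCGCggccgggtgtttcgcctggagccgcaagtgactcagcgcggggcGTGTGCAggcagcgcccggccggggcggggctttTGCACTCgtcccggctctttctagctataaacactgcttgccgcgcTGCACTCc
MT1X: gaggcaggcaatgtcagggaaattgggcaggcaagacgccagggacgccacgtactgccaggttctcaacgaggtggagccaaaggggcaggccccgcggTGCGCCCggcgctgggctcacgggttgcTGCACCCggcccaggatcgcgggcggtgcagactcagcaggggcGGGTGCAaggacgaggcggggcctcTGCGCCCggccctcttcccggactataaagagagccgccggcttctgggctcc
SLC30A1: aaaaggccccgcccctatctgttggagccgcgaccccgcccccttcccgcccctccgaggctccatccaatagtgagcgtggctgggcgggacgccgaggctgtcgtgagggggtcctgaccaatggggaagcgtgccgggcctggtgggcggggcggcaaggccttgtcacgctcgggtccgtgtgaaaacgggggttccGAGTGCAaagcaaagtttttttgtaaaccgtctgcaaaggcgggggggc
MT2A held 7 cores in these 250 bases and 8 in the whole window, MT1X held 4, and SLC30A1 held 1, on the opposite strand and starting 49 bases before the transcription start, with another 24 bases after it. Of all 35116 RefSeq windows of this length, 29.6% held at least 1 core, 8.60% at least 2, 0.601% at least 4 and 0.0740% at least 6. The MTF1 window and the first SLC39A10 window held 0, and the second SLC39A10 window held 1 core after the start. These are matches of letters and not measured binding.

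Under GO, all 5 metallothioneins and the exporter SLC30A1 were lower than in untreated cells in every sample, the importer SLC39A10 was higher in every sample, and MTF1 overlapped between the groups. Of the 8 genes, 6 were called lower and 1 higher (edgeR, adjusted p below 0.01 and absolute log2 fold change above 1). Over all 17092 genes tested, 2.62% were called lower and 3.84% higher in this contrast. How many of all genes separate without overlap, in this or the later comparisons, was not counted. With 3 against 3 samples, genes that do not differ can also separate, so a lack of overlap only describes these samples. The levels below are TMM-normalized CPM, the counts of a gene scaled to a common library size, in replicates 1, 2 and 3.

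MT2A, the most abundant metallothionein here, stood at 44.3, 33.1 and 38.4 CPM in untreated cells and at 8.58, 6.50 and 7.58 CPM after GO. The lowest untreated sample was above every GO sample by a wide margin. The mean was 5.11 times lower after GO, a log2 fold change of −2.36 (SE 0.29).

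MT1E, MT1F and MT1X, metal-binding isoforms of the MT1 subfamily, differed more than MT2A did. MT1E was at 12.8, 9.46 and 10.4 CPM in untreated cells and at 0.392, 0.321 and 0.481 CPM after GO, where it had 10 to 17 counts per library. MT1X was at 12.9, 11.5 and 12.1 CPM against 0.862, 0.829 and 0.792 CPM. Both genes were thus below 1 CPM in all 3 GO samples and above 9 CPM in all untreated ones. MT1F was at 20.7, 19.9 and 19.9 CPM against 2.90, 1.85 and 2.60 CPM. The means were 27.3 times lower for MT1E, 14.7 times lower for MT1X and 8.23 times lower for MT1F after GO, which are log2 fold changes of −4.76 (SE 0.32), −3.87 (SE 0.23) and −3.05 (SE 0.20).

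MT1M was the least abundant of the 5, with 46, 20 and 37 counts in untreated cells and 0 counts in all 3 GO libraries. Taking 3 counts per library as the limit that a count of 0 allows, between 0.0803 and 0.117 CPM, its untreated mean of 0.909 CPM was at least 7.74-fold higher. Intervals and limits of this kind cover counting error only, since the reads carry no molecular identifiers. The median log2 fold change of the 5 metallothioneins was −3.87, or −3.05 with MT1M placed at its bound, beside 0.01 over all genes tested.

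SLC30A1 was at 82.8, 82.1 and 79.2 CPM in untreated cells and at 11.7, 13.8 and 11.7 CPM after GO. Its samples were tightly spaced within both groups and far apart between them, and the mean was 6.55 times lower after GO (log2 fold change −2.71, SE 0.11). SLC39A10 went the other way, from 21.1, 20.5 and 20.5 CPM to 65.6, 86.1 and 83.3 CPM, 3.79 times higher in the mean (log2 fold change 1.92, SE 0.13). The lowest of the 3 GO values came from replicate 1, the library with the highest mitochondrial share. MTF1 was at 29.4, 32.8 and 28.5 CPM in untreated cells and at 28.4, 32.3 and 30.1 CPM after GO. The 2 groups overlapped, with a log2 fold change of 0.00 (SE 0.10).

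Without GO replicate 1, the log2 fold changes were −4.76 for MT1E, −3.18 for MT1F, −3.90 for MT1X, −2.45 for MT2A, −2.67 for SLC30A1, 2.04 for SLC39A10 and 0.05 for MTF1, and 7 of the 8 genes were again called. An offset for GC content moved SLC30A1 to −2.46 and SLC39A10 to 2.26.

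**Figure D1:**
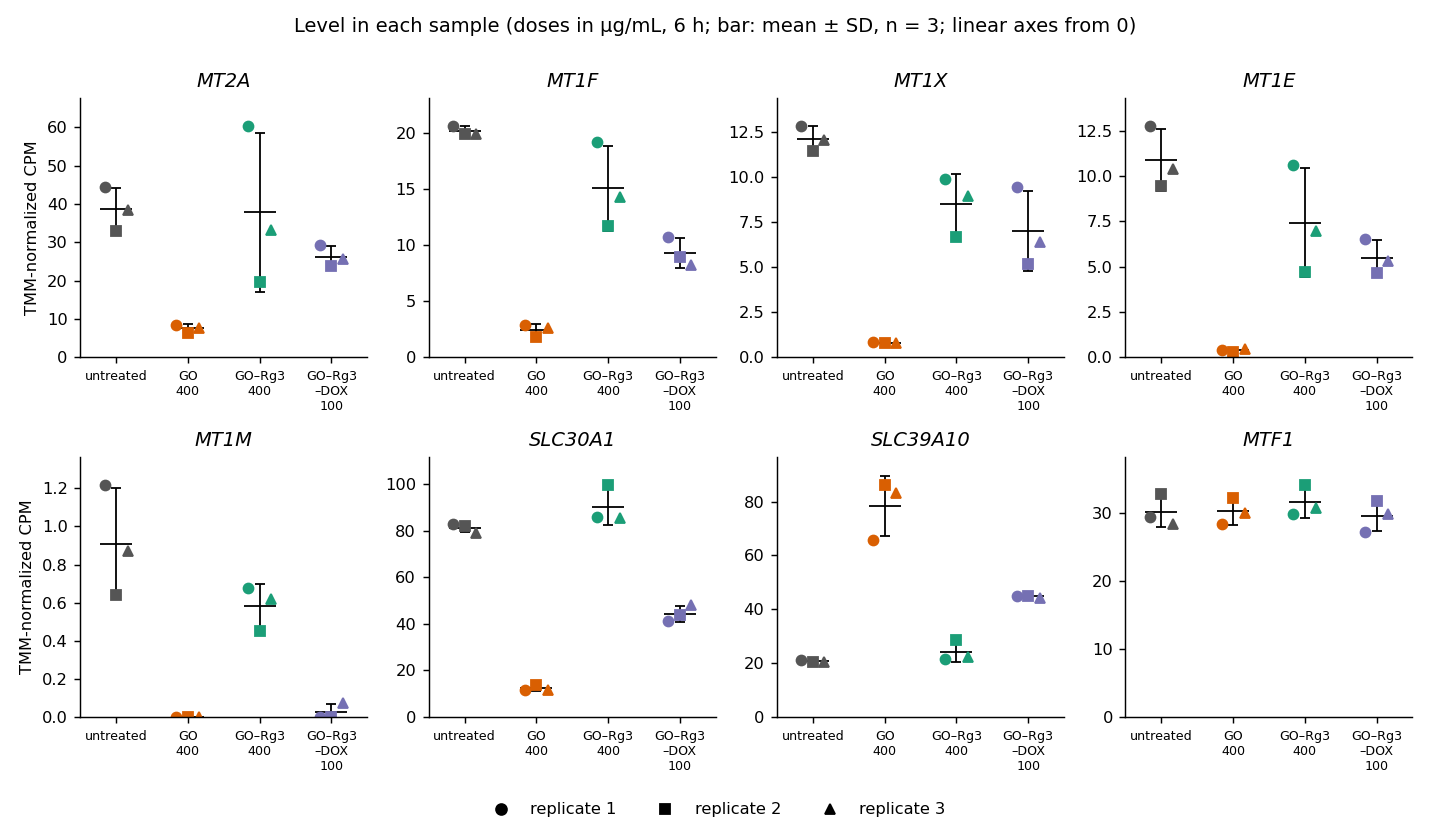
Level of each of the 8 genes in the 12 samples, on linear axes of TMM-normalized CPM that start at 0, with groups along the horizontal axis, symbols for the replicate number and bars for the mean ± SD (n = 3). The GO samples lie below the untreated ones for the 5 metallothioneins and SLC30A1 and above them for SLC39A10, and the 4 groups of MTF1 lie between 27.2 and 34.1 CPM.

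GO–Rg3, at the same 400 µg/mL, left the 8 genes close to untreated cells. None was called in either direction, where 0.0468% of all genes were called lower and 0.0117% higher. Log2 fold changes lay between −0.64 (SE 0.34) for MT1M and 0.22 (SE 0.12) for SLC39A10, with a median of −0.51 over the 5 metallothioneins beside 0.00 over all genes tested.

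The spread among the GO–Rg3 samples was wide for the metallothioneins. MT2A was at 60.4, 19.7 and 33.2 CPM, so that 1 sample lay above all untreated samples and another below them all. MT1E was at 10.6, 4.73 and 6.95 CPM, and its first sample lay within the untreated range. MT1F, at 19.2, 11.7 and 14.3 CPM, and MT1X, at 9.92, 6.72 and 8.96 CPM, were in all 3 samples below the lowest untreated sample. MT1M had 25, 14 and 24 counts, overlapping the untreated libraries. The coefficient of variation of MT2A was 54.9% after GO–Rg3 and 14.6% in untreated cells.

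The transporters varied less than the metallothioneins. SLC30A1 was at 85.9, 99.6 and 85.6 CPM and SLC39A10 at 21.7, 28.7 and 22.2 CPM, all 3 samples of each just above the highest untreated sample, with log2 fold changes of 0.15 (SE 0.10) and 0.22 (SE 0.12). MTF1 was at 29.9, 34.1 and 30.7 CPM and overlapped the untreated samples. Replicate 2 of GO–Rg3 had the lowest metallothionein levels and the highest SLC30A1, SLC39A10 and MTF1 levels of its group.

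Set directly against GO at the same dose, GO–Rg3-treated cells had higher levels of the 5 metallothioneins and SLC30A1 and lower levels of SLC39A10, without overlap between samples. This contrast shares its GO and GO–Rg3 samples with those above and is no independent view of them. The paper reports that its GO–Rg3 flakes were also larger, thicker and less negatively charged than GO. No group here received Rg3 alone, so Rg3 and these properties cannot be told apart. It called 6 of the 8 genes higher and 1 lower, where 0.702% of all genes were called higher and 2.07% lower. MT1E was 4.22 (SE 0.33) higher on the log2 scale, MT1X 3.37 (SE 0.24), SLC30A1 2.86 (SE 0.11), MT1F 2.64 (SE 0.20) and MT2A 2.33 (SE 0.29). MT1M was at least 4.95-fold higher than its limit in the GO libraries. SLC39A10 differed by −1.70 (SE 0.12) and MTF1 by 0.06 (SE 0.10). The median over the 5 metallothioneins was 3.37, or 2.64 with MT1M at its bound, beside −0.02 over all genes.

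GO–Rg3–DOX was given at 100 µg/mL, so the presence of DOX and the lower dose of the carrier cannot be told apart against the other treatments, and its values are set beside theirs without a test. Against untreated cells, 2 of the 8 genes were called lower (MT1F and MT1M) and 1 higher (SLC39A10). In this contrast 18.2% of all genes were called lower and 12.6% higher.

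MT1F was at 10.8, 8.91 and 8.24 CPM after GO–Rg3–DOX, below every untreated sample and above every GO sample (log2 fold change against untreated cells −1.12, SE 0.18). MT1E was at 6.55, 4.64 and 5.30 CPM and MT1X at 9.48, 5.18 and 6.41 CPM, also without overlap with untreated cells. Their log2 fold changes were −0.99 (SE 0.23) and −0.80 (SE 0.19), and neither was called. Without GO–Rg3–DOX replicate 1 both were called, which made 5 of 8, at log2 fold changes of −1.12 for MT1E and −1.05 for MT1X. MT1E was also called without untreated replicate 2 or 3, with no filter on low counts (−1.07), with an offset for GC content (−1.20) and with library totals alone (−1.41), and MT1X with library totals alone (−1.23). MT2A, at 29.3, 23.9 and 25.5 CPM, overlapped no untreated sample and was not called (log2 fold change −0.56, SE 0.27).

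MT1M stood apart from the other 4 metallothioneins after GO–Rg3–DOX. It had 0, 0 and 2 counts, against 20 to 46 in an untreated library. After scaling, this was 2.77% of the untreated level, with an exact 95% counting interval of 0.330% to 10.2%. The other 4 metallothioneins were at 46.2% to 68.1% of theirs. The median log2 fold change of the 5 was −0.99, beside −0.06 over all genes tested.

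SLC30A1 was at 43.6 and 48.1 CPM in replicates 2 and 3 of GO–Rg3–DOX and slightly lower in replicate 1 (mean 44.3 ± 3.58 SD, n = 3), and SLC39A10 was at 45.0, 45.1 and 44.2 CPM. Both lay between the untreated and the GO samples without touching either, with log2 fold changes against untreated cells of −0.88 (SE 0.10) and 1.11 (SE 0.12). MTF1, at 27.2, 31.8 and 29.9 CPM, overlapped every other group. These values depend on the scaling more than those under GO. With library totals alone, the median of all genes was −0.47 in this contrast, MTF1 stood at −0.44, SLC30A1 was called at −1.29 and SLC39A10 was no longer called at 0.70. With an offset for GC content SLC30A1 was at −0.56 and SLC39A10 at 1.59.

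**Figure D2:**
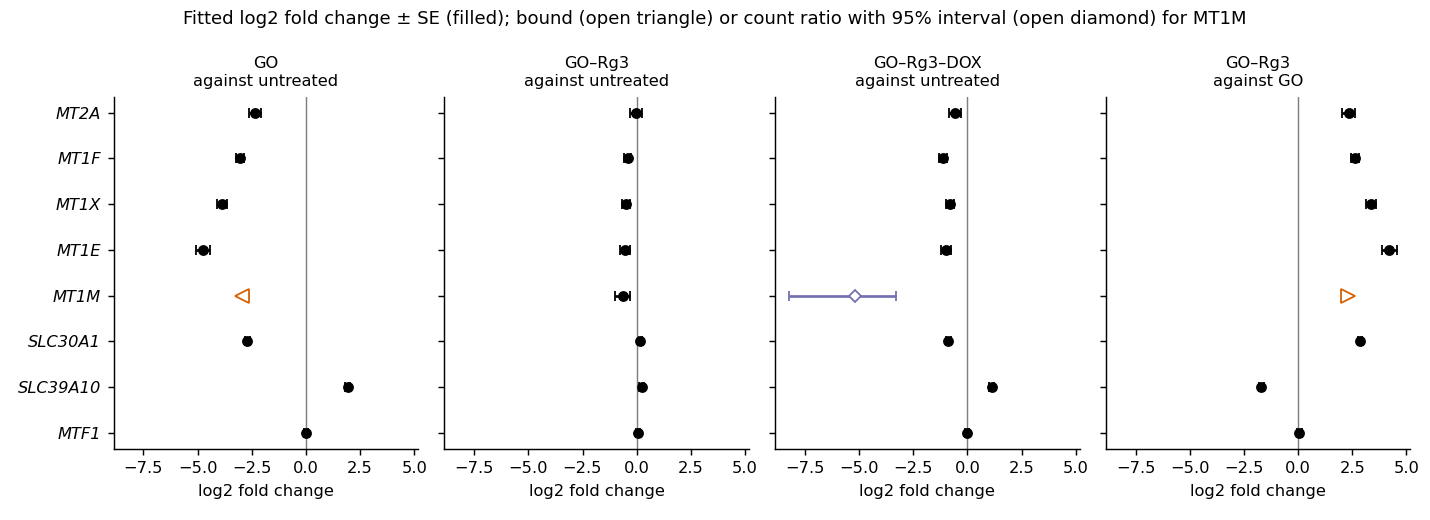
Log2 fold change of the 8 genes in the 4 comparisons, on a shared horizontal axis, as fitted values ± SE (filled circles). For MT1M the open triangles mark the bound against libraries at 0 counts and the open diamond the ratio of counts after GO–Rg3–DOX with its 95% interval, and the GO–Rg3 panel is the one in which all points lie within 0.64 of 0.

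The order of the 4 groups differed between genes. For each metallothionein the mean was highest in untreated cells, followed by GO–Rg3, GO–Rg3–DOX and GO. Some neighbours in this order overlapped: untreated and GO–Rg3 cells for MT1E, MT1M and MT2A, and GO–Rg3 and GO–Rg3–DOX cells for MT1E, MT1X and MT2A. MT1F had no overlap at any step. GO lay clear of GO–Rg3–DOX for MT1E, MT1F, MT1X and MT2A, but not for MT1M. For SLC30A1 the order from the top was GO–Rg3, untreated, GO–Rg3–DOX and GO, without overlap at any step. For SLC39A10 it was GO, GO–Rg3–DOX, GO–Rg3 and untreated, again without overlap. For MTF1 all neighbours overlapped.

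The 5 metallothioneins together held 82.6 ± 8.70 CPM (SD, n = 3) in untreated cells and 11.2 ± 1.63 CPM after GO, which was 13.6% of the untreated sum. GO–Rg3 cells held 69.4 ± 29.1 CPM and GO–Rg3–DOX cells 48.1 ± 7.09 CPM, or 84.0% and 58.2% of the untreated sum. The composition of these reads also differed. MT2A supplied 46.5% ± 1.98 of them in untreated cells and 67.3% ± 1.14 after GO, with 52.4% ± 7.25 under GO–Rg3 and 54.8% ± 2.19 under GO–Rg3–DOX. MT1E supplied 13.1% ± 0.693 in untreated cells and 3.55% ± 0.580 after GO, and MT1X 14.7% ± 0.686 and 7.47% ± 1.09. The share of MT1F overlapped between the groups, at 24.5% ± 2.09 and 21.6% ± 1.91.

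**Figure D3:**
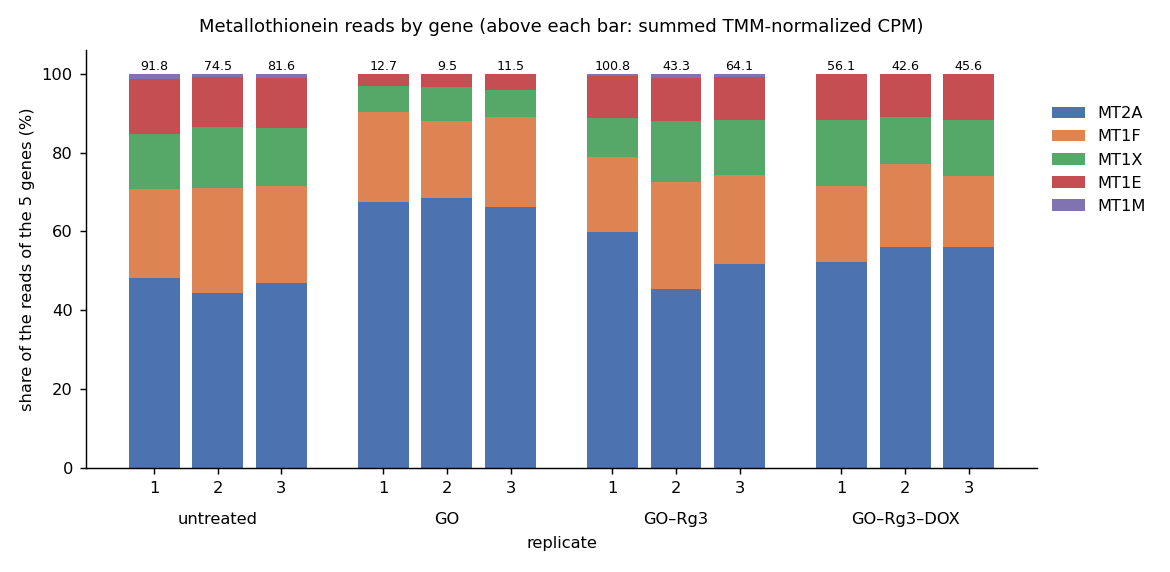
Share of the reads of the 5 metallothionein genes that fell on each gene, as stacked bars from 0 to 100% for each of the 12 samples, with the summed TMM-normalized CPM above each bar. MT2A takes more of the reads in the 3 GO samples (66.2% to 68.5%) than in the untreated ones (44.4% to 48.2%), and the MT1E segment is smallest there.

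Per kilobase of canonical transcript, a rough allowance for transcript length, MT2A was at 96.2 ± 14.0 CPM per kb in untreated cells (SD, n = 3). MT1F followed at 47.4 ± 1.04, MT1X at 30.0 ± 1.75 and MT1E at 14.6 ± 2.29. The canonical transcript used was 746 nt long for MT1E and 398 to 425 nt for the other metallothioneins. With the split of reads among MT1 genes also uncertain, this ranking is approximate. SLC30A1 was at 13.8 ± 0.327 CPM per kb, SLC39A10 at 3.96 ± 0.0699 and MTF1 at 3.81 ± 0.284. On the same scale the importer SLC39A10 was at 0.287 ± 0.00503 of the level of the exporter SLC30A1 in untreated cells and at 0.301 ± 0.0214 after GO–Rg3. After GO it was at 7.12 ± 0.854 times the exporter's level and after GO–Rg3–DOX at 1.15 ± 0.102 times. This ratio was 0.282 to 0.325 in the 6 untreated and GO–Rg3 samples and above 1 in each of the 6 others, and being taken within a sample it does not depend on the scaling of libraries. In the samples it was 6.30, 7.06 and 8.01 after GO and 1.24, 1.17 and 1.04 after GO–Rg3–DOX.

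Replicate 2 had the lowest level of its group for most metallothioneins. Leaving out MT1M, this held for 4 of 4 genes in untreated cells, 3 of 4 after GO, 4 of 4 after GO–Rg3 and 3 of 4 after GO–Rg3–DOX. On the log2 scale the 5 metallothioneins of replicate 2 deviated from their group mean by −0.18, −0.16, −0.47 and −0.24 on average in these groups. These averages include MT1M, which had 0 counts in every GO library. In GO–Rg3–DOX replicate 2 its deviation of −0.39 comes from counts of 0, 0 and 2 in that group. MTF1 was highest in replicate 2 of all 4 groups. The labels give the replicate numbers without saying what they stand for.

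The rest of the metallothionein family was close to absent. Of 16 further metallothionein genes and pseudogenes looked for, 15 were in the table, none passed the filter, and 3 had no counts in any sample. MT1A, a functional MT1 isoform, was the most counted of them, with 31 counts summed over the 3 untreated libraries, 4 under GO, 21 under GO–Rg3 and 5 under GO–Rg3–DOX. The others had at most 4 counts in any library.

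The other zinc transporters differed less under GO than SLC30A1 and SLC39A10 did. Of the 9 further SLC30 genes, most of which move zinc out of the cytosol, 5 passed the filter and 0 were called under GO. At an adjusted p below 0.01 without the fold limit, 2 were lower: SLC30A9, a zinc transporter of mitochondria, by −0.67 (SE 0.13, edgeR adjusted p = 0.000669) and SLC30A5, an exporter into the early secretory pathway, by −0.48 (SE 0.12, edgeR adjusted p = 0.00494). Of the 13 further SLC39 genes, which bring zinc into the cytosol, 11 passed the filter and 0 were called under GO. At that adjusted p, SLC39A5 (0.56, SE 0.14) and SLC39A9 (0.47, SE 0.09) were higher and SLC39A14, which also carries iron and manganese, was lower (−0.43, SE 0.11). Over all genes, 15.4% were lower and 12.1% higher at that adjusted p. The medians were −0.38 over the 5 SLC30 genes and 0.03 over the 11 SLC39 genes, beside 0.01 over all genes.

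GO–Rg3 called 0 of these transporters against untreated cells, where they ranged from −0.11 to 0.55. The highest value belonged to SLC39A8, a zinc and manganese importer, at 0.55 (SE 0.10, edgeR adjusted p = 0.0148) against untreated cells and 0.59 (SE 0.10, edgeR adjusted p = 0.000597) against GO.

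After GO–Rg3–DOX, 1 of the 5 SLC30 genes was called lower and 2 of the 11 SLC39 genes higher, where 18.2% of all genes were called lower and 12.6% higher. These counts are not set apart from that background. SLC30A5 stood at 16.6 ± 1.75 CPM against 36.2 ± 1.23 CPM in untreated cells, a log2 fold change of −1.13 (edgeR adjusted p = 1.05e-06). SLC39A5, an importer of the basolateral membrane, stood at 138.2 ± 1.47 CPM against 57.4 ± 3.50 CPM (1.27, edgeR adjusted p = 1.49e-06). SLC39A4, the importer mutated in acrodermatitis enteropathica, stood at 3.54 ± 0.225 CPM against 1.18 ± 0.401 CPM (1.57, edgeR adjusted p = 0.000157). All 3 calls held when any 1 sample was left out and were lost with an offset for GC content, at −0.71, 0.63 and 0.73, and that of SLC39A5 also with library totals alone, at 0.85. At an adjusted p below 0.01 alone, 8 of the 11 SLC39 genes were higher and 4 of the 5 SLC30 genes lower, with medians of 0.59 and −0.49 beside −0.06 over all genes. Over all genes, 25.5% were higher and 30.5% lower at that adjusted p in this contrast, so changes of this kind were common.

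**Figure D4:**
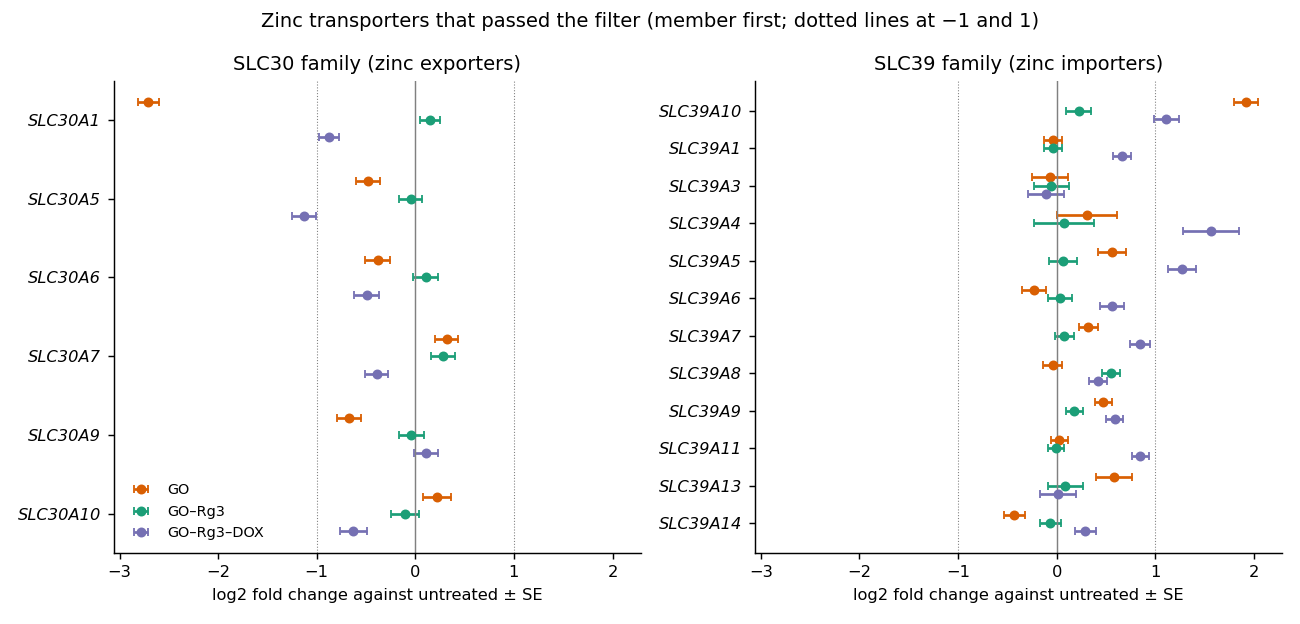
Log2 fold change against untreated cells, ± SE, of the zinc transporter genes that passed the filter, with SLC30 genes in the left panel and SLC39 genes in the right, coloured by treatment. Under GO, SLC30A1 at −2.71 and SLC39A10 at 1.92 lie outside the dotted lines at −1 and 1, and the other 16 genes lie inside them.

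Genes of neighbouring pathways were read from lists of copper handling, metal-induced stress and glucocorticoid-induced genes, the last because glucocorticoids also induce metallothioneins. Of 11 copper genes tested, 0 were called under GO. COX17, a copper chaperone of cytochrome c oxidase, was called lower after GO–Rg3, at 13.2 ± 1.77 CPM against 27.7 ± 0.879 CPM in untreated cells (log2 fold change −1.06, edgeR adjusted p = 0.00895), a call that was lost whichever of the 6 samples was left out. Under GO, COX17 was nearly as low, at 14.3 ± 3.79 CPM (−0.96, SE 0.17, edgeR adjusted p = 0.000424), short of the fold limit. Between GO–Rg3 and GO it differed by −0.10 (SE 0.17). SCO2, which delivers copper to the same enzyme, was lower after GO–Rg3–DOX (−1.48, edgeR adjusted p = 5.15e-06), where 18.2% of all genes were called lower.

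Of 9 metal-induced stress genes tested, 1 was called lower and 1 higher under GO, beside 2.62% and 3.84% of all genes. At an adjusted p below 0.01 without the fold limit, 5 were lower and 1 higher, beside 15.4% and 12.1% of all genes. Their median was −0.48, beside 0.01 over all genes. GCLM, a subunit of the enzyme that starts glutathione synthesis, was at 77.6 ± 14.5 CPM against 162.5 ± 5.98 CPM (−1.06, edgeR adjusted p = 1.98e-05), and its call was lost without GO replicate 1, at −0.92, and with an offset for GC content, at −0.73. SLC7A11, which imports cystine, was at 46.2 ± 6.66 CPM against 19.7 ± 1.06 CPM (1.23, edgeR adjusted p = 5.07e-06). After GO–Rg3–DOX 3 were called lower: DNAJB1 (−3.54, edgeR adjusted p = 1.29e-12) and HSPA1B (−1.22, edgeR adjusted p = 4.62e-06), which are heat shock chaperones, and HMOX1 (−1.21, edgeR adjusted p = 7.73e-07), which degrades haem. Of all genes 18.2% were called lower in that contrast. At an adjusted p below 0.01 alone, 7 of the 9 were lower and 0 higher, beside 30.5% and 25.5% of all genes. HSPA1B has a near-identical copy, so its count is uncertain. GO–Rg3 called 0 of the 9 against untreated cells.

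Of 7 glucocorticoid-induced genes tested, SGK1, a kinase that regulates ion channels, was called lower under GO (−1.16, edgeR adjusted p = 1.80e-05) and after GO–Rg3–DOX (−1.34, edgeR adjusted p = 4.64e-07). It was higher after GO–Rg3 than after GO (1.24, edgeR adjusted p = 2.16e-05). Over all genes, 2.62% were called lower under GO and 0.702% higher after GO–Rg3 than after GO. After GO–Rg3–DOX the transcription factor ZBTB16 was also lower (−1.21, edgeR adjusted p = 0.00182) and KLF9, another transcription factor, higher (1.08, edgeR adjusted p = 7.89e-06). Over all genes, 18.2% were called lower and 12.6% higher in that contrast, so such calls were common. KLF9 was also higher under GO, short of the fold limit (0.91, SE 0.14, edgeR adjusted p = 0.000179). The call of ZBTB16 was lost without GO–Rg3–DOX replicate 1 or 2, and that of KLF9 without replicate 3 or, at 0.67, with library totals alone.

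The genes whose pattern over the 12 samples was most like that of these genes were found by the root mean square difference in log2 CPM, each profile centred on its untreated mean, among 13235 genes. Nearest to the mean of the 5 metallothioneins were PCDH9 (0.794), ANKRD1 (0.848), HSD3B1 (0.876), TMEM27 (0.896) and IQCJ-SCHIP1 (0.925). These distances are wide, since the mean profile of the metallothioneins differed from untreated cells by −3.54 under GO on that scale, and that of PCDH9, a protocadherin, by −2.44. PCDH9 was also nearest to SLC30A1 (0.316), followed by the glutamate transporter SLC1A3 (0.457) and VGLL3 (0.537). Nearest to SLC39A10 were TENC1 (0.255), MGEA5 (0.291), which removes O-GlcNAc from proteins, and ZSWIM4 (0.322). MGEA5 had a mean of 47.1 CPM in untreated cells, 134.1 CPM under GO, 56.3 CPM under GO–Rg3 and 80.0 CPM under GO–Rg3–DOX. MTF1 was nearest to ELP2 (0.0720), DERL1 (0.0722) and AGK (0.0733), all level across the groups.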

How the data were processed

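RNA of 12 Huh7 samples was sequenced from stranded mRNA libraries. The authors mapped reads to GRCh37 with the NGI RNAseq pipeline and assigned them to genes with featureCounts; the values the authors deposited are raw counts. The annotation release and the strand and multimapping options are not given in the sources used here. Samples were grouped by their labels. Genes reaching 10 counts in 3 or more samples (17092) were fitted over all 12 samples with the quasi-likelihood test of edgeR 4.0.16 (TMM scaling, prior count 0.125, no covariate), with Benjamini-Hochberg adjustment over all genes tested; the paper used DESeq2. A call needed an adjusted p below 0.01 together with a log2 fold change beyond ±1. SEs were derived from the F statistic and are approximate. Transcript lengths and GC content came from GENCODE release 44 lifted to GRCh37. The members and lists were chosen with earlier results of these data known. Named were all members, at most 4 called genes per list and comparison with the largest absolute log2 fold change, zinc transporters also by range, and the 5 or 3 genes of at least 1 CPM nearest in pattern. SLC39A8, the transporters named for an adjusted p alone and the GO values of COX17 and KLF9 were chosen after their values were seen. On simulated counts of the 17092 genes for GO against untreated, 83 of 100 genes changed by 1.5 (log2) and 98 of 100 changed by 3 were called, with 0 of 16892 unchanged genes. The simulation used the same mean profile for all groups and the fitted trend of the dispersion. It held no differences in composition, GC content or replicate between libraries, so its rates may not hold for the real counts. Alternatives were other scalings and filters, DESeq2 1.42.0, a GC offset (loess, span 0.5), the replicate block, the 6 samples compared, a prior count of 0.25, each sample left out and cores on 1 strand.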

Additional observations from a re-analysis of the deposited data

How the results depend on the processing

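No log2 fold change of the 8 genes that was called reversed under any alternative run, and GO against untreated kept 7 called members when any 1 sample was left out, as did GO–Rg3 against GO. After GO–Rg3–DOX, 3 members were called, 3 to 5 with 1 sample left out, and 5 with library totals alone. The metallothionein median there, −0.99, was −1.20 with the GC offset, −1.20 with the GC offset and the replicate block, and −1.41 with library totals alone. With at least 10 counts required in every sample, where MT1M is not tested, the median was −3.44 under GO and 2.98 for GO–Rg3 against GO. GO–Rg3 against untreated called 10 genes in all, 37 with DESeq2, 23 with the GC offset, 29 with that offset and the replicate block, 24 with the replicate block, 18 with library totals alone, 63 with no filter, 20 with only the 6 samples compared and 1 to 10 with 1 sample left out. Its 1 call among the lists was 0 with RLE scaling, with at least 10 counts in every sample, with only the 6 samples and with any 1 sample left out. GO–Rg3 against GO called 473 genes and 280 with only the 6 samples, and its 1 list call was 2 with the GC offset, 2 with the replicate block added to it, 3 with library totals alone and 1 to 2 with 1 sample left out. Causes were not tested. Library totals alone turned 657 higher and 448 lower calls under GO into 476 and 695, 2159 and 3103 after GO–Rg3–DOX into 1029 and 4937, and 120 and 353 for GO–Rg3 against GO into 220 and 231, with medians of all genes at −0.11, −0.47 and 0.12. The labels do not say that replicate numbers pair samples. Same-numbered samples deviated together by a mean correlation of 0.0914 (−0.0239 to 0.253 over 18 pairs), and 10 of 12 samples correlated best with their own number; the replicate block changed no member's call. Depth limits MT1M most: 0 counts in a library allow up to 0.117 CPM.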
